A study of Mus musculus with 3 samples.

Results

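Antisense noncoding genes are transcribed from the DNA strand opposite another gene, and yield RNAs without a long open reading frame. The members described here are all genes of the GENCODE M21 annotation with at least 1 transcript of the biotype antisense, except Kcnq1ot1, Tsix, Gas5 and the Snhg genes. The rule found 3091 genes, 5 of them were among those exceptions, and 3086 of 55536 gene rows remained. The rule reads only the annotation and uses no measured level. The biotype of all transcripts was antisense in 2944 members, and 142 members also had a transcript of another biotype. By the annotation, 193 of the members overlap no gene of any type on the other strand.

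The RNA came from macrophages grown from the bone marrow of C57BL/6J mice, stimulated with Lipid A at 100 ng/ml for 20 min. Lipid A is the membrane anchor of bacterial lipopolysaccharide and the ligand of the receptor Tlr4. Total RNA of the cytosolic fraction was depleted of ribosomal RNA and sequenced in 3 libraries, which form 1 condition; unstimulated cells, other times and nuclear RNA were not analysed here, so no value below is a response to Lipid A. The labels number the libraries as biological replicates 1 to 3 but give them the same donor identifier, and sex and age are recorded as not collected. An SD over the 3 libraries is thus the scatter among these samples and may be technical in part. Expected counts summed to 27392626, 81597761 and 37176950 in replicates 1, 2 and 3. All 10 macrophage markers were detected, and the lists for B cells, T and NK cells, dendritic cells, mast cells, erythroid cells and fibroblasts had no detected gene. In the neutrophil list 3 of 6 genes were detected, with a list sum of 18.5 to 27.3 TPM against 5602 to 8027 TPM for the macrophage list.

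RNAs of this class act in several known ways. Some, such as Airn at Igf2r, silence a neighbouring gene in cis through their transcription. Others change the splicing or stability of the sense mRNA by pairing with it, share a promoter with a gene that runs the other way, or serve as the precursor of a microRNA or of small nucleolar RNAs. Many are annotated from few clones, have no known function and carry only a Gm or Rik number. The sources used here do not say whether the libraries kept the strand of the RNA, so reads from a member and from an exon opposite it cannot be told apart by strand.

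What such an overlap means for the sequence can be read from 4 members with their whole exons inside exons of an expressed gene. Each stretch of 30 bases is written 5′ to 3′ as in the RNA of the member, followed by the stretch of the gene on the other strand that holds the same base pairs. The capitals mark the same 8 base pairs in both, at the start of the first and the end of the second.
Gm26716: TTTAAGTTttggccatgaactcaggacagg
Sdc3: cctgtcctgagttcatggccaaAACTTAAA
Gm20659: TGAAAAAGacaatttcctgtgagaaaatct
Dusp3: agattttctcacaggaaattgtCTTTTTCA
Gm17122: TCCAACATtaaaccacaagacagacacaga
Coro1c: tctgtgtctgtcttgtggtttaATGTTGGA
Gm11175: TCGATGGGcgacagcggagggctgtcgccg
Jund: cggcgacagccctccgctgtcgCCCATCGA
The stretches lie in mm10 at chr4:130826092-130826121 (minus strand of Gm26716), chr11:101971430-101971459 (plus strand of Gm20659), chr5:113842772-113842801 (plus strand of Gm17122) and chr8:70699795-70699824 (minus strand of Gm11175). A fragment from either strand gives the same letters once it is read as double-stranded DNA.

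The members as a class were present at low levels in the cytosol. Levels are in TPM, a unit corrected for transcript length with a fixed sum per library, and a member counts as detected where each of the 3 libraries has at least 1 TPM. By that rule 52 of 3086 members (1.69%) were detected, against 16.8% of all gene rows, 1.01% of 5854 lincRNA genes and 40.5% of 22028 protein-coding genes. The mean level reached 1 TPM in 69 members. No count at all was assigned in any library to 1680 members (54.4%), against 60.0% of all gene rows. Together the members held 0.0805%, 0.0775% and 0.0906% of the expected counts in replicates 1, 2 and 3, a mean of 0.0829% ± 0.00686 (SD, n = 3). The level was uneven: the 3 highest members held 29.8% of the summed TPM of all members and the 25 highest held 61.7%. Other scales and limits moved this count, and that of all genes with it. With TPM rescaled over the protein-coding genes of the nuclear genome, which lowers the limit for every gene, 170 members and 20.5% of all gene rows were detected. With a limit of 10 expected counts these were 236 members and 22.3% of gene rows. They were 23 members and 13.1% of gene rows in a second quantification, made straight from the reads and called the second table below. Unless it is named, levels are those of the gene table.

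Members were placed in 4 classes by their overlap with genes of any type on the other strand, a grouping chosen after the values were seen. In 119 members, called contained below, 90% or more of the exonic bases lie on exons of such genes. A further 1718 members share a smaller part of their exons, 1056 overlap the span of such a gene without sharing an exonic base, and 193 overlap none. Detected members numbered 14 of the 119 contained, 30 of the 1718 that overlap in part, 4 of the 1056 within a gene body and 4 of the 193 apart. The contained class thus had 3.86% of the members and 44.7% ± 1.00 (SD, n = 3) of their summed TPM. In the second quantification it had 13.3% ± 2.79 (SD, n = 3). Of the 9 highest members 6 were contained, and of the 25 highest 10 were.

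**Figure D1:**
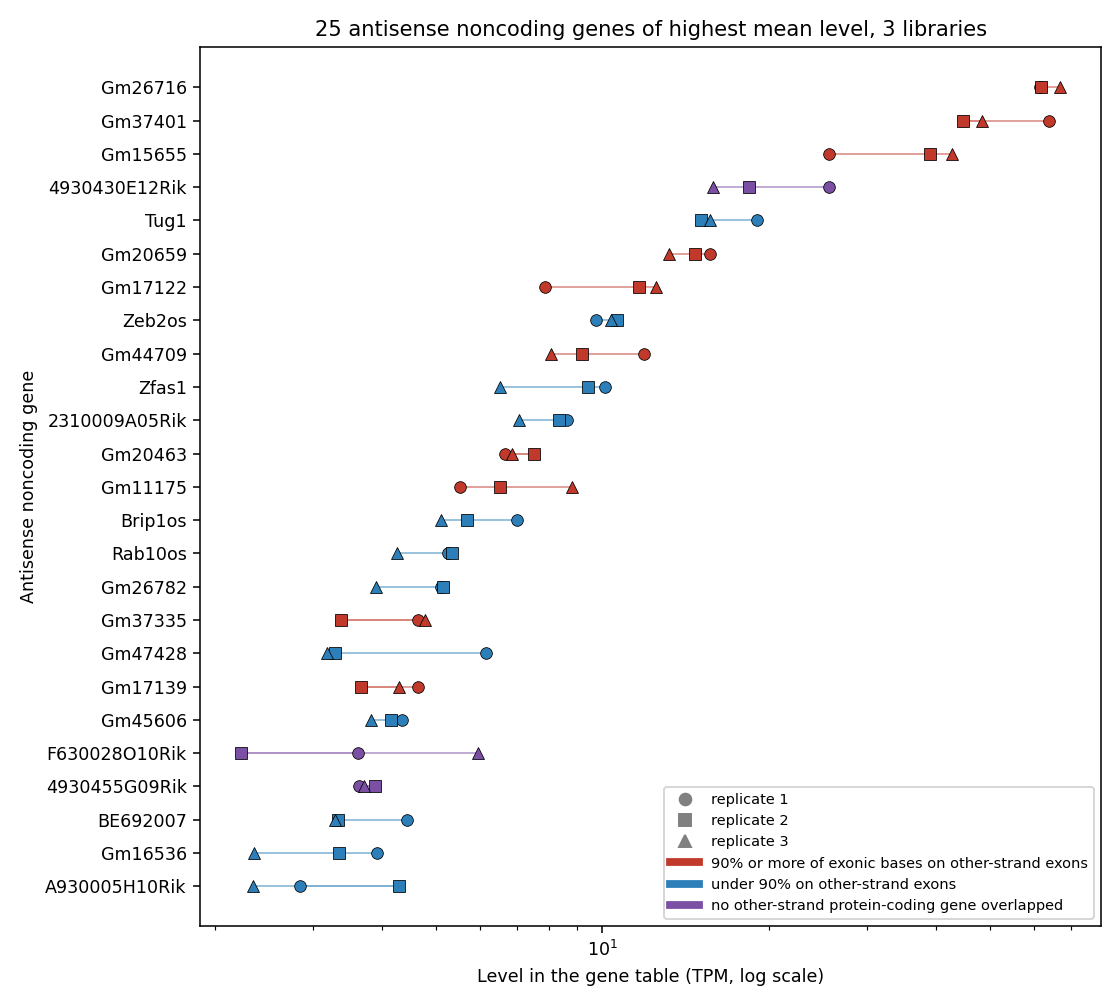
Level of the 25 antisense noncoding genes of highest mean TPM in each of the 3 libraries (log axis). Symbols mark the replicates and colours the overlap with exons of genes on the other strand. Contained members, in red, hold the first 3 places, and F630028O10Rik and Gm47428 have wide gaps between libraries.

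Gm26716 had the highest mean of all members and lies wholly in an untranslated region of Sdc3, the gene of the cell-surface heparan sulfate proteoglycan syndecan-3. The gene spans chr4:130824394-130826313 on the minus strand, with 415 exonic bases, all on Sdc3 exons and none on coding sequence. Its level was 61.5, 61.9 and 67.0 TPM in replicates 1, 2 and 3, and Sdc3 was at 134, 113 and 111 TPM. The second quantification listed Gm26716 at 0.272, 0.0401 and 0 TPM. The libraries lay close together in the first quantification, and all 3 fell to near 0 in the second.

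Gm37401 was next, with 93.4% of its exonic bases on an untranslated region of Rhoa, a small GTPase that organises the actin cytoskeleton. It measured 64.0, 44.8 and 48.5 TPM, and in the second quantification 20.7, 9.93 and 7.73 TPM. Gm15655 lies wholly in an untranslated region of Maf, a transcription factor of mature macrophages, and measured 25.7, 38.9 and 42.8 TPM. Here the second quantification gave 18.5, 18.9 and 13.5 TPM, so that Gm15655 was lowest in replicate 1 by one method and lowest in replicate 3 by the other. These were the 2 contained members that averaged 1 TPM or more in both quantifications.

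The other contained members of high level dropped to near 0. Gm20659, in an untranslated region of the phosphatase gene Dusp3, measured 15.6, 14.7 and 13.2 TPM and was listed at 0 in all 3 libraries of the second table. Gm17122, in an untranslated region of the coronin gene Coro1c, measured 7.88, 11.6 and 12.5 TPM and was likewise listed at 0. Gm11175 lies opposite coding sequence: all 877 of its exonic bases are on the coding sequence of Jund, a subunit of the transcription factor AP-1. It measured 5.53, 6.52 and 8.81 TPM beside 35.99, 28.8 and 30.8 TPM of Jund, and 0.119 TPM on average in the second table. Gm44709 opposite the elongation factor gene Supt5 had a mean of 9.70 ± 1.96 TPM (SD, n = 3) and 0.128 TPM in the second table. Gm20463 opposite the ubiquitin ligase gene Rnf5 fell less, from 7.02 ± 0.450 (SD, n = 3) to 0.950 TPM.

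Over all 15 contained members that averaged 1 TPM or more, 11 had a mean in the second table under 0.1 times that in the first, and 6 of them were listed there at 0 in every library. Among the gene rows with such a mean 2.01% met the same criterion. The median log2 ratio of the second to the first table was -4.73 for the 15, -1.07 for the 41 members that overlap in part and -1.31 for all gene rows. Protein-coding genes of the nuclear genome held 10.5%, 8.92% and 6.71% of the TPM of the second table in replicates 1, 2 and 3. The class was defined after these values were seen, so the contrast is a description. In 12 of the 15 no exonic base lies on coding sequence, and the 3 exceptions are Gm44709, Gm20463 and Gm11175. None of the 15 had whole expected counts in all 3 libraries (within 0.005 of an integer), against 67.5% of gene rows at that level. The share was 34.1% of the 41 members that overlap in part and 37.7% of all 69 members at that level. It was 100% of the 8 members within a gene body and 80% of the 5 apart. An expected count is fractional where the estimate divides reads among genes. The strand of origin of these reads cannot be told apart here.

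**Figure D2:**
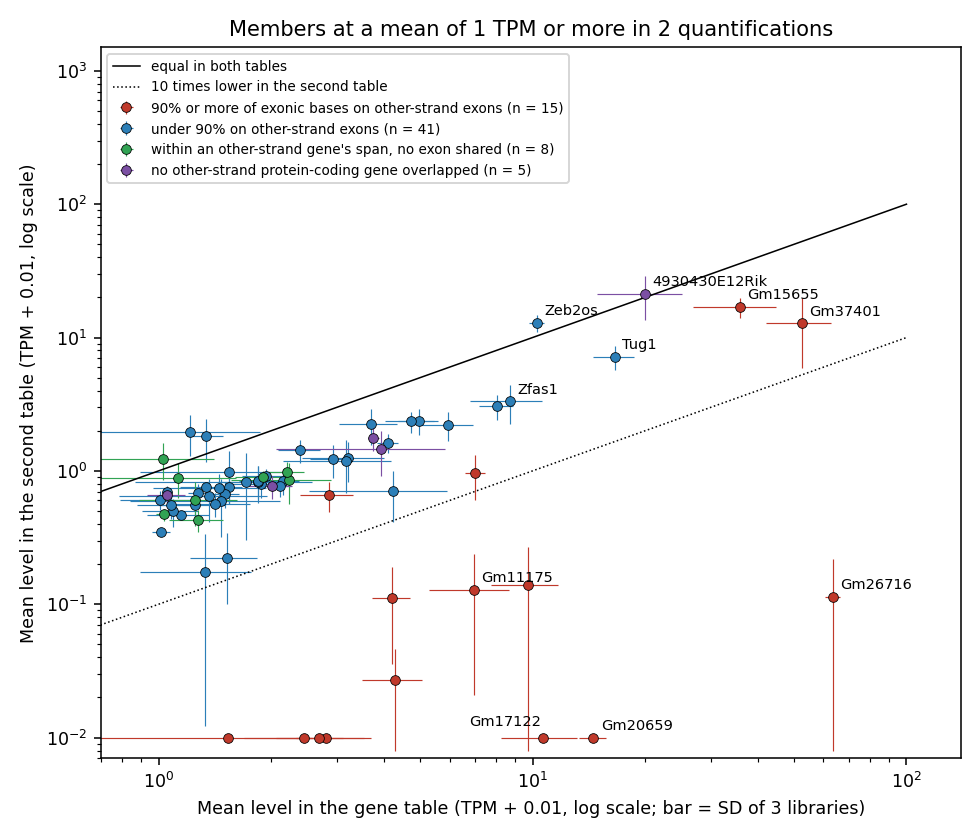
Mean level of the 69 members that averaged 1 TPM or more in the gene table (x) and in the second quantification (y), both in TPM + 0.01 on log axes, with the SD of 3 libraries as bars. The contained members in red reach down to the floor of the y axis. Tug1 and Zfas1 lie near the other members, while 4930430E12Rik and Zeb2os lie higher, near the line of equal levels.

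**Figure D3:**
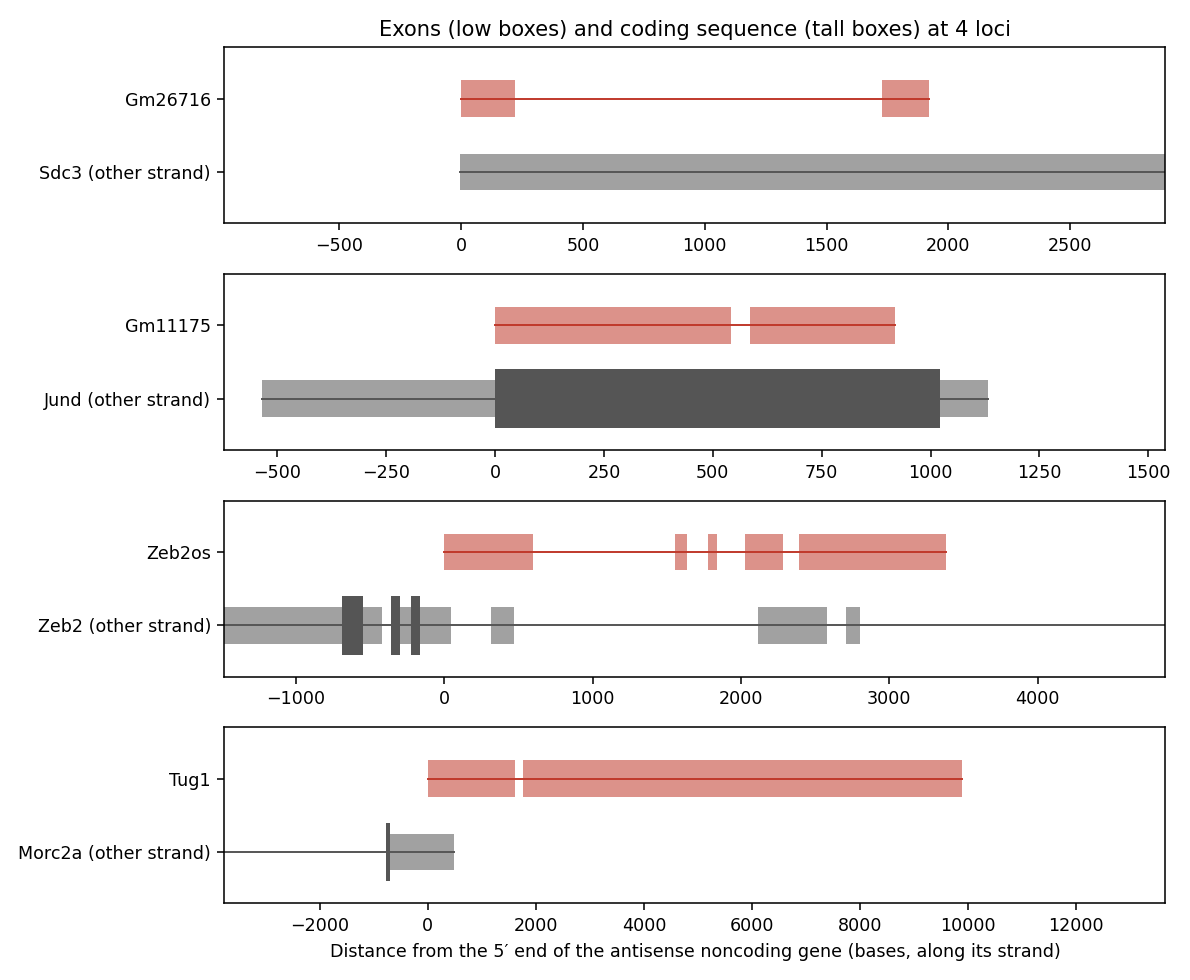
Exons (low boxes) and coding sequence (tall boxes) of Gm26716, Gm11175, Zeb2os and Tug1, each above the gene on the other strand, in bases from the 5′ end of the antisense gene. Gm26716 lies within 1 untranslated stretch of Sdc3 and Gm11175 on the coding sequence of Jund, while Zeb2os and Tug1 extend beyond the exons opposite them.

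The highest member free of overlap with a protein-coding gene on the other strand was 4930430E12Rik, at chr4:6352105-6357530 on the minus strand. It measured 25.7, 18.4 and 15.9 TPM, from whole counts of 554, 1361 and 580. In the second table it had 29.7, 19.9 and 14.4 TPM, the highest mean of all members there. Both quantifications placed replicate 1 highest and replicate 3 lowest. Its isoform 4930430E12Rik-202 carried 89.5% ± 4.53 of its level (SD, n = 3). Other members apart from protein-coding genes were 4930455G09Rik, at 3.63, 3.89 and 3.72 TPM, and F630028O10Rik, described below with its microRNA.

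Tug1, a conserved long noncoding RNA with known roles in chromatin regulation and in the retina, was the highest member with a described function. It starts 482 bases from the 5′ end of Morc2a, a gene of a chromatin-silencing ATPase that runs the other way, and 4.96% of its 9734 exonic bases are on exons of the other strand. Tug1 measured 18.98, 15.1 and 15.7 TPM and Morc2a 5.51, 4.83 and 4.89 TPM. The level was divided among isoforms, with 30.2% ± 0.603 in Tug1-205, 26.5% ± 1.87 in Tug1-203 and 23.6% ± 3.96 in Tug1-202 (SD, n = 3). Tug1-202 had 4.47% in the second table, and the order of the 3 isoforms was the same there.

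Zfas1 is a host gene of small nucleolar RNAs, which guide the methylation of ribosomal RNA and are cut from its introns. It starts 81 bases from Znfx1, an RNA helicase gene that is induced by interferon. Zfas1 measured 10.1, 9.43 and 6.52 TPM from whole counts of 268, 829 and 292, and Znfx1 measured 48.6, 37.2 and 28.7 TPM. Both were highest in replicate 1 and lowest in replicate 3. Replicate 1 was also highest in 80.3% of all gene rows with a mean of at least 1 TPM. The spliced isoform Zfas1-205 carried 89.3% ± 7.04 (SD, n = 3), and the retained-intron isoform Zfas1-202 carried 4.39% ± 3.38 (SD, n = 3). The span of Zfas1 holds Snord12 and 2 more small RNA genes, and their part in its counts was not tested.

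Some members start close to another gene. The 5′ end lay within 1 kb of the 5′ end of a protein-coding gene on the other strand in 16 of the 52 detected members (30.8%) and in 663 of the 3034 that were not detected (21.9%). Beside Tug1 and Zfas1 these include 2310009A05Rik near Pigb, Brip1os near Brip1, Gm26782 near Tep1 and A930005H10Rik near Dph5. Gm26782 measured 5.12, 5.15 and 3.91 TPM beside Tep1, which encodes a telomerase-associated protein, at 33.5, 25.3 and 24.3 TPM. Both values of 2310009A05Rik and Pigb were lowest in replicate 3, at 7.06 and 3.08 TPM. Nuclear-encoded protein-coding genes as a whole also held their smallest share of the TPM in that library, 19.6%. Another of the 16 is Gt(ROSA)26Sor, the transcript of the locus that is used for transgene insertion in mice, which starts 32 bases from Setd5 and had a mean of 1.41 TPM.

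The 250 bases before and 50 bases after the start were taken from RefSeq (GRCm38.p6) for the 1129 members that matched by symbol. The median number of CG dinucleotides per window was 11 for the 19 detected members with a window, none of them contained, and 6 for the 1110 not detected ones, and 7 for all 32851 windows. The GC box GGGCGG was sought on both strands; it was in 9 of the 19 (47.4%), in 26.8% of the 1110 and in 35.7% of all windows. The following 2 windows are shown because they differ widely: Zfas1 shares its start region with Znfx1, and F630028O10Rik starts 53512 bases from the nearest start of a protein-coding gene on the other strand. The first is chr2:167062684-167062983 and the second chrX:96239676-96239975, both on the plus strand, with the GC boxes in capitals.
Zfas1: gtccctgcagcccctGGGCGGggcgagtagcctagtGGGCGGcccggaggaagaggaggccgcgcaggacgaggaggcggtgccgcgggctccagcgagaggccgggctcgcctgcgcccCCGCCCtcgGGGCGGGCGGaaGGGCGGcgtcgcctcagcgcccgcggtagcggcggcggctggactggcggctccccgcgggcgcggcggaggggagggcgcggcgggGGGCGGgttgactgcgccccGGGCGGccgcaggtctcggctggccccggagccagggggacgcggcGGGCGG
F630028O10Rik: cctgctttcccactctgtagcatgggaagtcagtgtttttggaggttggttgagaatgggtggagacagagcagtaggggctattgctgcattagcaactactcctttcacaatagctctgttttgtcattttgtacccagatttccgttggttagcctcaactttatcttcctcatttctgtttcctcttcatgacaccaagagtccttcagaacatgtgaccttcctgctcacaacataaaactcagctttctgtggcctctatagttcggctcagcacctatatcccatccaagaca
The Zfas1 window has 47 CG dinucleotides, 83.0% G or C and 9 GC boxes, some of which overlap. The F630028O10Rik window has 2 CG dinucleotides, 45.3% G or C and no GC box. A match of these letters is a description of the window and not a binding site. GAGGAAGT, a core sequence bound by the myeloid factor PU.1, and TTGCGCAA, bound by C/EBP factors, were also sought on both strands, and neither is in these 2 windows; they are in 3.20% and 0.183% of all windows.

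F630028O10Rik is the host gene of miR-223, a microRNA abundant in myeloid cells that restrains granulocyte production and inflammatory signalling. The mature arm that is best known, with its seed (bases 2 to 8) in capitals, is in the span of the gene at chrX:96242884-96242905.
mmu-miR-223-3p: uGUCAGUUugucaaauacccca
F630028O10Rik measured 3.62, 2.23 and 5.95 TPM in replicates 1, 2 and 3, from whole counts of 492, 990 and 1247. It overlaps no protein-coding gene on the other strand. Replicate 3 was highest and replicate 2 lowest, and the second table gave the same order with 1.46, 0.897 and 1.98 TPM. Malat1 and Neat1, nuclear RNAs that are not members, had that order too, with 359, 248 and 763 TPM and 31.7, 23.6 and 83.9 TPM. Their part in the level of F630028O10Rik was not tested, and these values measure the long host RNA, not the mature microRNA.

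How the spread of the members between libraries compared with that of other genes depended on the scale. The median SD of log2(TPM + 1) was 0.162 over the 69 members that averaged 1 TPM or more and 0.160 over all gene rows with such a mean. After TPM were rescaled over the protein-coding genes of the nuclear genome the medians were 0.205 and 0.101. Replicate 1 was highest in 36 of the 69 members (52.2%), against 80.3% of all gene rows at that level. Replicate 2 was highest in 19 (27.5%), against 14.0%, and replicate 3 in 14 (20.3%), against 5.70%. With the rescaled TPM the 3 libraries were highest in 18, 13 and 38 members, beside 30.4%, 30.9% and 38.7% of gene rows. Nuclear-encoded protein-coding genes held 24.98%, 22.0% and 19.6% of the TPM in replicates 1, 2 and 3, so every TPM carries a share of that shift. In bulk RNA, fewer cells with a transcript and less of it per cell cannot be told apart.

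One library stood 1.5 times or more above the next in 8 of the 69 members, and in 4.28% of all gene rows. Among those, Gm47428 measured 6.17, 3.29 and 3.18 TPM, and 49.8% of its exonic bases lie opposite Ftl1-ps1. Tnfsf13os, opposite the gene of the B-cell survival cytokine APRIL, measured 2.68, 1.35 and 1.09 TPM, and Tnfsf13 itself 10.1, 4.83 and 5.26 TPM. Gm37787 in the immune receptor locus Slamf7 measured 1.90, 1.10 and 0.61 TPM. Replicate 1 was highest in these 3. In 3 other members with a large SD of log2(TPM + 1) no library was 1.5 times above the next. Gm44170 and Gm44206 were highest in replicate 1. Gm40578 measured 2.09, 0.82 and 1.69 TPM and had its low value in replicate 2. Gm44170 is contained, opposite Sec61a1, and was listed at 0 in every library of the second table. Gm47428 averaged 4.21 TPM, and 0.697 TPM in the second table. Gm37787, with 72.3% of its exonic bases on other-strand exons, averaged 1.20 TPM, and 1.95 TPM in the second table. These 6 members had at most 242 counts in a library.

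**Figure D4:**
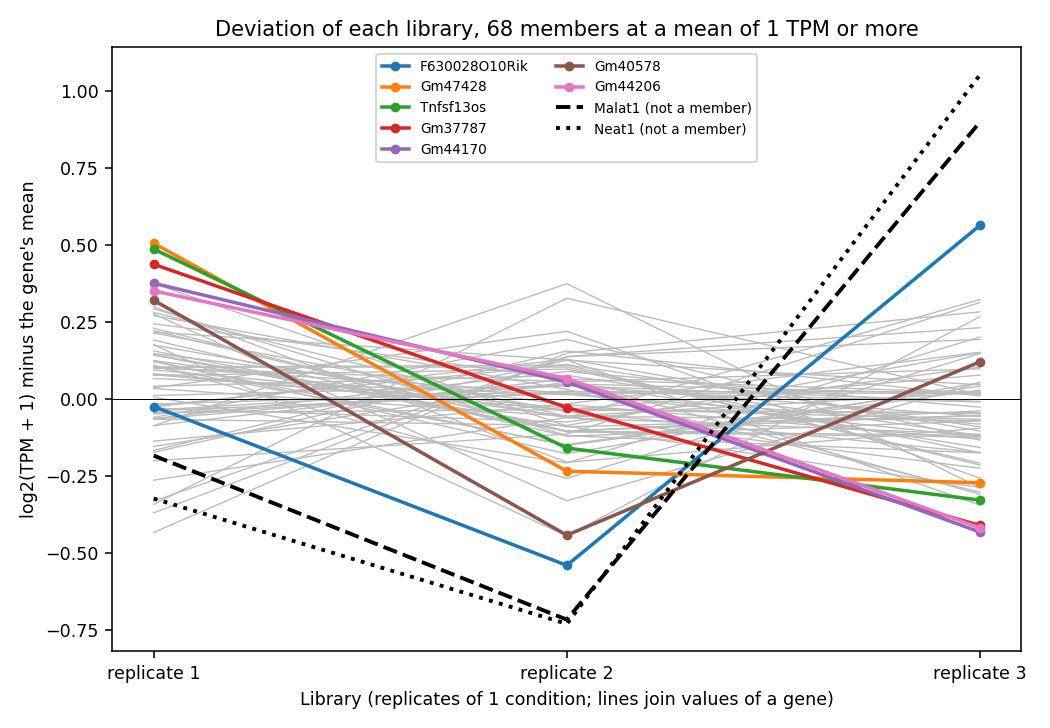
Deviation of log2(TPM + 1) from the mean of each gene in the 3 libraries, for 68 of the 69 members that averaged 1 TPM or more; coloured lines are 7 of the 8 members of largest SD and black lines are Malat1 and Neat1. F630028O10Rik is low in replicate 2 and high in replicate 3 as the 2 black lines are, and Gm47428 is high in replicate 1.

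The symbol of a member names its sense gene in 266 cases, for example Zeb2os for Zeb2. All 266 lie on the opposite strand of the gene named, 232 overlap its span, and 152 share exonic bases with it. In 139 pairs at least 1 of the 2 genes had a mean of 0.1 TPM or more. Over these the median of log2((antisense TPM + 0.1)/(sense TPM + 0.1)) was -4.26, -4.06 and -3.83 in replicates 1, 2 and 3, a mean of -4.05 ± 0.215 (SD, n = 3). The sense gene was thus the higher one in the typical pair of these 139 in each library. A pair could enter through its sense gene alone, so the limit itself bears on this median. The size of this median moved with the pseudocount, from -5.94 at 0.01 TPM to -1.74 at 1 TPM. Over all 266 pairs, without the limit, it was -0.81. Both genes reached 0.1 TPM in 36 pairs, and the sense gene was higher in all 3 libraries in 32 of them. The median over these 36 had a mean of -3.95 ± 0.255 (SD, n = 3). Of 34 pairs with a sense gene at 10 TPM or more, 17 had an antisense gene under 0.1 TPM. The other 17 reached 0.1 TPM. Such a level was rarer among all 3086 members, of which Il1bos, at a mean of 0.103 TPM, ranked 396. The source of this difference was not tested.

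**Figure D5:**
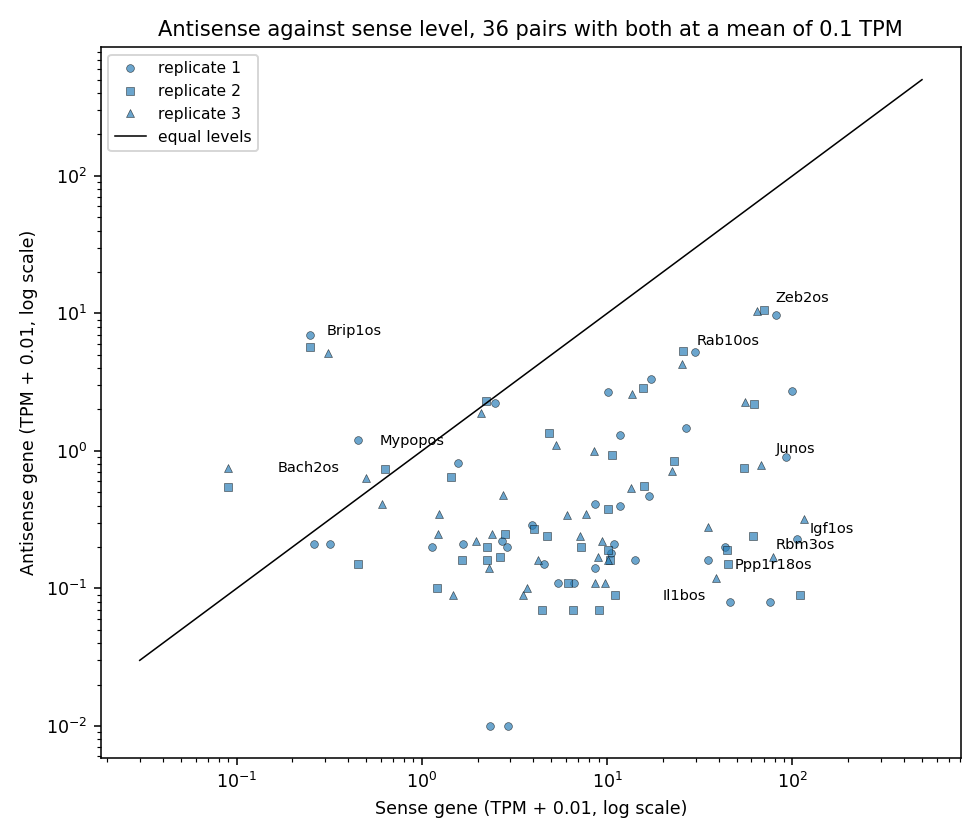
Level of the antisense gene against that of the sense gene in each library for the 36 pairs in which both reached a mean of 0.1 TPM (TPM + 0.01, log axes); the line marks equal levels. Most points lie below the line, Brip1os lies above it in all 3 libraries, and Igf1os, Rbm3os and Ppp1r18os lie farthest below.

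Brip1os was the pair with the highest ratio among those 36. It measured 7, 5.70 and 5.11 TPM, and Brip1, a helicase gene of DNA repair, measured 0.24, 0.24 and 0.30 TPM. The antisense gene was 22.8-fold higher by the means, with a log2 ratio of 4.06 ± 0.342 (SD, n = 3). The spans do not overlap: the starts lie 177 bases apart, and the exonic overlap of Brip1os on the other strand is largest with Med13, at 10.8, 8.68 and 8.15 TPM. Almost all of its level was in Brip1os-201, at 99.4% ± 0.545 (SD, n = 3). Mypopos also exceeded its sense gene in every library, with 1.18, 0.73 and 0.62 TPM against 0.44, 0.62 and 0.49 TPM, but its log2 ratio of 0.58 was no larger than its SD of 0.58.

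Bach2os and Bach2, a transcriptional repressor of lymphocytes, changed order between libraries. Bach2os measured 0.20, 0.54 and 0.74 TPM and Bach2 0.25, 0.08 and 0.08 TPM, for a log2 ratio of 1.28 ± 1.31 (SD, n = 3). Zbtb11os1 and the zinc finger gene Zbtb11 were level at 2.23, 2.31 and 1.89 TPM against 2.48, 2.21 and 2.08 TPM. Ccdc142os, Etaa1os, Tnfsf13os and Ttc39aos1 complete the 8 highest ratios, with log2 ratios of -0.70, -1.16, -1.94 and -2.26. Of the 139 pairs 5 had the antisense gene higher in all 3 libraries. The 3 not yet named, chosen after their values were seen, had a sense gene close to 0: Plxna4os1 at 0.68, 0.69 and 0.70 TPM, Hectd2os at 0.53, 0.47 and 0.62 TPM, and Rab26os at 1.16, 1.13 and 1.51 TPM. Rab26os rested on 6, 20 and 13 counts, and its span holds Snord60.

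At the other end were 3 pairs with an abundant mRNA. Igf1os measured 0.22, 0.08 and 0.31 TPM and Igf1, a growth factor made by macrophages, 106, 110 and 115 TPM, for a log2 ratio of -8.59 ± 0.587 (SD, n = 3). No exonic base is shared by this pair. Rbm3os measured 0.07, 0.23 and 0.16 TPM beside the cold-shock RNA-binding protein gene Rbm3 at 75.9, 61.3 and 78.3 TPM. Ppp1r18os measured 0.07, 0.14 and 0.11 TPM beside Ppp1r18 at 46.1, 44.9 and 38.4 TPM. The 3 antisense genes had 2 to 46 counts in a library.

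The antisense genes named by their symbol for innate immune and myeloid genes were a list of 4. Of these 1 was detected, against 1.69% of all members. A list of 4 is too short to compare with that share. Members without such a symbol are outside the list, such as the detected Gm15655 opposite Maf and Gm11175 opposite Jund. Zeb2os lies at chr2:45110707-45114087 on the plus strand, opposite the 5′ part of Zeb2, a transcription factor that maintains macrophage identity. It measured 9.74, 10.6 and 10.4 TPM, and Zeb2 measured 81.3, 69.8 and 64.0 TPM. The SD of log2(TPM + 1) of Zeb2os was 0.0590, under the median of 0.162 given above. It shares 653 of its 1990 exonic bases with Zeb2 exons, and the second table gave 12.4, 11.4 and 15.0 TPM. Replicate 1 was its lowest library in the gene table and replicate 2 in the second table. Its isoform Zeb2os-202 carried 78.0% ± 3.57 of the level (SD, n = 3) in the transcript table and 26.0% in the second table.

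The other 3 members of that list lie beside early response genes. Jun, an AP-1 subunit, had 92.1, 54.7 and 67.9 TPM, and Junos had 0.90, 0.74 and 0.78 TPM. Il1b, the gene of interleukin-1 beta, had 35.1, 9.07 and 8.63 TPM, and Il1bos had 0.15, 0.06 and 0.10 TPM. Replicate 1 was highest for both genes of each of these pairs, as it was in 80.3% of gene rows with a mean of at least 1 TPM. Il1bos rested on 13, 17 and 11 counts. Ptgs2, which encodes the prostaglandin synthase COX-2, had 5.58, 3.33 and 1.59 TPM, and Ptgs2os was listed at 0.00, 0.01 and 0.02 TPM. The floor of 3 counts equals 0.110, 0.0368 and 0.0808 CPM in replicates 1, 2 and 3, for counting error only.

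None of the imprinted, Hox cluster and developmental antisense RNAs was detected, which is the usual case for a member. Airn, the paternally expressed RNA that silences Igf2r, measured 0.25, 0.29 and 0.54 TPM from 12, 41 and 40 counts, with the highest value in replicate 3. Nespas had 0, 1 and 2 counts and Igf2os had none, so 0 of the 3 imprinted members were detected. In the Hox clusters 0 of 8 members were detected and 4 had no count. Over all members 1.69% were detected and 54.4% had no count, so these counts show no difference of the 2 short lists from the class. Hotairm1, a Hoxa antisense RNA known from myeloid differentiation, was the highest Hox member at 0.56, 0.66 and 0.75 TPM from 4, 15 and 5 counts. By mean level Hotairm1 ranked 95 and Airn 155 of the 3086 members. All 18 antisense genes of developmental transcription factors, such as Pax6os1, Six3os1 and Wt1os, had 0 counts in every library. At this depth that count allows up to the floor given above.

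Some members of low rank in the gene table were high in the second table. Of its 25 highest members, 14 were also among the 25 highest of the gene table. Of the 7 members within a gene body that averaged 1 TPM or more in the second table, 1 also did so in the gene table. Examples, chosen after their values were seen, are the gene-body members Gm13091 at 0.33, 0.48 and 0.30 TPM against 2.87, 2.56 and 2.07 TPM, and Gm20234 at 0.37, 0.34 and 0.79 TPM against 2.41, 1.33 and 3.38 TPM. Gm17201 measured 0.67, 0.20 and 0.42 TPM in the gene table and 6.98, 5.18 and 4.11 TPM in the second. Gm20400 had 0 counts in the gene table and 2.44, 1.31 and 1.37 TPM in the second. These differences ran opposite to those of the contained members.

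The rest of the 25 highest members had means of 3.16 to 8.02 TPM. Contained among them were Gm37335, opposite the heparan sulfate sulfotransferase gene Hs6st1, at 4.64, 3.37 and 4.79 TPM, and Gm17139, opposite the ubiquitin ligase gene Arel1, at 4.64, 3.67 and 4.29 TPM. Rab10os, opposite the vesicle transport GTPase gene Rab10, measured 5.26, 5.35 and 4.26 TPM beside 29.9, 25.7 and 25.5 TPM of Rab10, and was above 1 TPM in every library of both tables. BE692007, opposite the macrophage membrane gene Ms4a6c at 108 TPM on average, measured 4.43, 3.33 and 3.29 TPM. Most of that level, 90.9% ± 2.75 (SD, n = 3), was in the retained-intron isoform BE692007-202. The isoform BE692007-201, of biotype antisense, carried 9.06% ± 2.75 (SD, n = 3). Gm45606, opposite the amino acid transporter gene Slc43a2, measured 4.34, 4.15 and 3.82 TPM, and Gm16536, opposite the secretase gene Bace1, measured 3.92, 3.34 and 2.35 TPM. Replicate 3 was the lowest library of these 4. A930005H10Rik, opposite Dph5, an enzyme gene of diphthamide synthesis, measured 2.84, 4.29 and 2.34 TPM and was highest in replicate 2.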

How the data were processed

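The 3 libraries each have 1 table of genes and 2 of transcripts. Per the file headers and notes deposited with them, genes and the first set of transcripts were quantified from reads aligned to transcript sequences, and the second set (here the second table) straight from the reads, on mm10 with GENCODE M21; the sources used here name no tool, version or strandedness. Expected counts, deposited by the authors, are estimates that need not be whole. The deposited TPM and FPKM values are corrected for transcript length and library size; TPM sum to a fixed total, so abundant short RNAs lower all others. The isoform percents were computed here, as the deposited TPM of an isoform over the summed TPM of the transcripts of its gene. The second table was summed to genes; 86 scaffold genes have no value in it.

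Groups came from the labels. All libraries are of 1 condition, so groups could not be compared and no test was made. For 2 alternatives expected counts were rounded and scaled with edgeR 4.0.16 and DESeq2 1.42.0. The procedures were tested on simulated data. Overlaps used the M21 exons. The named genes were the 25 members of highest mean, the 8 of largest spread, the 8 highest and 3 lowest pair ratios, and list members at 0.1 TPM; 1 member that this rule names, that of largest spread, is not reported here. Members, lists and rule were chosen with earlier results of these data known, and the 4 overlap classes after the values were seen.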

Additional observations from a re-analysis of the deposited data

How the results depend on the processing

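The libraries were left out in turn: detected members numbered 55 to 59, the share of expected counts was 0.0790% to 0.0856%, the median spread 0.119 to 0.167, the median pair ratio -4.16 to -3.97, and the pairs with the antisense gene higher 5 to 6. No paired analysis was possible because the libraries form 1 condition.

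Detected members, 52, became 100 at a limit of 0.5 TPM, 32 at 2 TPM, 236 at 10 expected counts, 99 by FPKM, 170 with TPM rescaled over protein-coding genes of the nuclear genome, 23 in the second table and 272 in the second table rescaled. Without the contained members 38 were left. The share of counts became 0.0963% without the 7SL, 7SK, RNase P and RNase MRP RNA genes in the denominator, 0.0958% in the second table and 0.0726% without the contained members. The spread, 0.162, became 0.237 and 0.204 at pseudocounts of 0.1 and 0.5, 0.205 with rescaled TPM, 0.224 with both TMM and DESeq2 scaling, and 0.276 in the second table; over all gene rows it was 0.0998 with TMM and 0.246 in the second table.

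The median pair ratio, -4.05, became -5.94 and -1.74 at pseudocounts of 0.01 and 1, -0.81 over all 266 pairs, -4.87 for pairs at 1 TPM, -4.56 by FPKM, -3.01 in the second table, -4.71 with the sense gene taken by overlap, and -3.64 for those pairs in the second table. It was negative under each of these. The pairs with the antisense gene higher, 5, became 2 at 1 TPM, 8 in the second table, 34 by overlap and 50 by overlap in the second table.

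Members highest in replicates 1, 2 and 3 were 57, 31 and 33 at a minimum of 0.5 TPM, 18, 13 and 38 with rescaled TPM, 25, 19 and 25 by CPM, 24, 2 and 5 in the second table, 13, 6 and 12 in the second table rescaled, and 28, 17 and 9 without the contained members. Leaving out the contained members, the rescaled second table and its overlap pairs were alternatives chosen after seeing the data. Depth limits members of few counts: the floor of 3 counts is 0.110 CPM in replicate 1.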
